A study of Mus musculus with 3 samples.

Results

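The Wnt pathway genes examined here are 44 genes of secreted Wnt ligands, R-spondins, their receptors, beta-catenin, its feedback gene Axin2 and the TCF/LEF transcription factors. They were chosen by name, as 44 of 21883 protein-coding genes, and every H3K27ac peak that touched a gene body or the 50 kb on either side of it was assigned to the gene. The marks came from pancreatic epithelial spheroids, three-dimensional cultures grown from wild-type C57BL/6J mice. One library was made from spheroids of untreated mice and 1 from spheroids of mice treated earlier with caerulein, an agent that overstimulates acinar cells and gives a bout of pancreatitis. The number of mice behind a library and the time since caerulein are not given in the sources used here. All mice were of one genotype, and the cultures of both groups grew in a medium with EGF, insulin and cholera toxin. The labels' recipe of that medium breaks off before its end, and the portion that can be read names no Wnt ligand and no R-spondin. An input library of untreated spheroids completes the series of 3 libraries, and no peaks of it were analysed here. With 1 library per condition, the differences below could not be set against replicate error, and they carry no p-values.

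H3K27ac is an acetyl mark on histone H3 that is found at active promoters and enhancers. Wnt ligands bind a Frizzled receptor together with LRP5 or LRP6, and this stops the destruction of beta-catenin, which then enters the nucleus and binds TCF/LEF factors on DNA. R-spondins strengthen the signal through the receptors LGR4, LGR5 and LGR6, which keep Frizzled proteins at the cell surface. In the pancreas, Wnt signalling is known for its part in the growth of the embryonic organ and in regeneration after injury.

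The post-caerulein list held 177 peaks in the windows of these genes, out of 38793 in all, and the untreated list held 179 out of 37765. The 44 windows joined into 40 separate stretches of 6.19 Mb in total. Peaks covered 679.8 kb of them after caerulein and 630.7 kb in untreated spheroids, which is 7.79% more after caerulein. Over the whole genome the covered length was 140.4 Mb and 134.6 Mb, or 4.31% more. Each list was also searched for peaks with no overlap of even 1 bp in the other, called list-only peaks. They numbered 34 of the post-caerulein peaks (19.2%, exact 95% interval 13.7 to 25.8) and 25 of the untreated peaks (14.0%, 9.25 to 19.9). The intervals hold the genome-wide shares of 17.5% and 14.3%, and they cover counting error over peaks only. At least 1 peak of either list lay near 39 of the 44 genes. Wnt2, Wnt3, Rspo2, Rspo3 and Rspo4 had none.

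The spheroids carried the mark of duct-like epithelium. A peak lay within 1 kb of a start of all 12 ductal and epithelial markers in both lists, among them Krt19, Epcam and Sox9, whereas 8 of 9 acinar markers had none in either. Mesenchymal markers had no marked start (8 of 8), nor had 6 of 7 endocrine, 5 of 6 endothelial and 4 of 6 immune markers. Of all 48 markers, the immune Ptprc alone had a start marked in 1 list only, after caerulein. Peaks covered 1.17 kb of its gene body after caerulein and none of it in untreated spheroids. Within 50 kb, a peak of either list lay near all ductal, immune and endothelial markers, 6 of 9 acinar, 5 of 8 mesenchymal and 2 of 7 endocrine ones. Summed covered length after caerulein and untreated was 612.9 and 644.9 kb over the ductal, 202.5 and 194.7 kb over the acinar and 32.8 and 42.7 kb over the endocrine markers. It was 57.2 and 46.0 kb over the mesenchymal, 84.5 and 83.2 kb over the immune and 52.4 and 61.1 kb over the endothelial markers. At least 1.5-fold longer after caerulein were the ductal Sox9 and Spp1, the mesenchymal Pdgfrb and Vim, the immune Csf1r and the endothelial Kdr. As much longer in untreated spheroids were the ductal Cftr (23.6 and 54.5 kb), the acinar Cpa1, the endocrine Chga and the endothelial Cdh5 and Tek. Ins1, Ins2, Gcg, Col1a2, Pdgfra and Lum were among the 11 markers with no peak. The part of such cells in the results below was not tested.

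**Figure D1:**
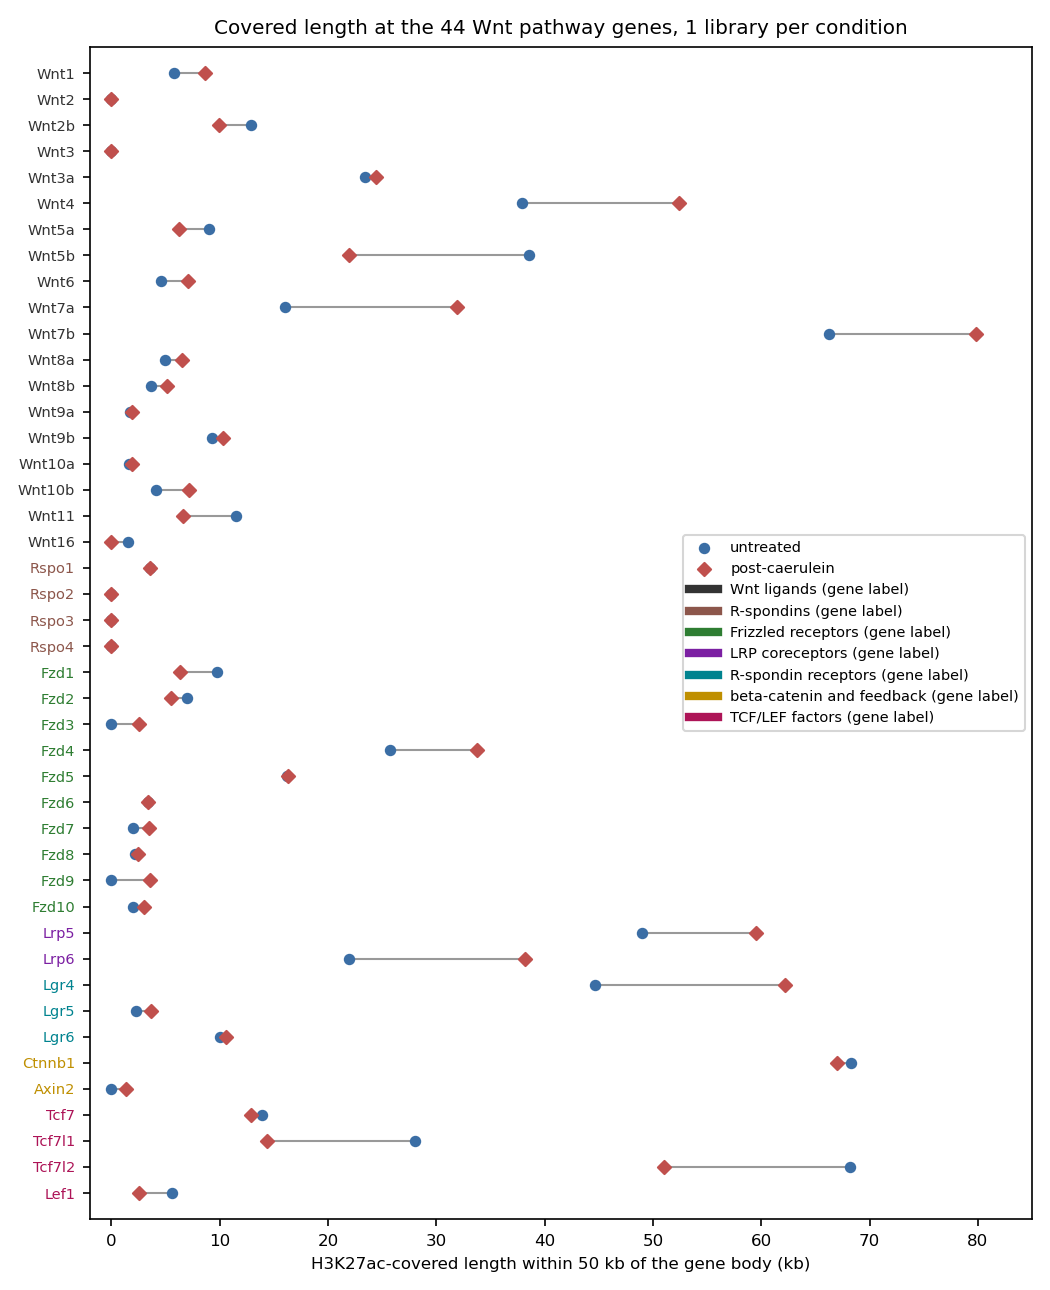
Length covered by H3K27ac peaks within 50 kb of each of the 44 genes, in kb, with circles for the untreated library and diamonds for the post-caerulein library. The 4 TCF/LEF genes at the bottom have the untreated circle on the right, and the LRP coreceptor and Lgr genes have the post-caerulein diamond on the right.

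A peak within 1 kb of the gene start was present in both lists for 18 of the 44 genes, against 52.7% of all protein-coding genes. Axin2 and Fzd3 had one after caerulein alone, and Wnt11 had one in untreated spheroids alone. In all, 47.7% of the genes had a marked start in either list, against 55.6% of all. Starts marked after caerulein alone made up 1.77% of all genes and those marked in untreated spheroids alone 1.11%. A start and strand were known for 31 of these genes, and either end of the gene was used for the other 13. The 250 bases before the start are shown for the genes whose known start carried a peak in 1 list only, or whose start carried a peak while the covered length differed by at least 1.5-fold. Sequences run 5′ to 3′ on the strand of the gene (RefSeq, GRCm38.p6), and capitals mark letters of the TCF/LEF binding motif.
Axin2, chr11:108920099-108920348, plus strand: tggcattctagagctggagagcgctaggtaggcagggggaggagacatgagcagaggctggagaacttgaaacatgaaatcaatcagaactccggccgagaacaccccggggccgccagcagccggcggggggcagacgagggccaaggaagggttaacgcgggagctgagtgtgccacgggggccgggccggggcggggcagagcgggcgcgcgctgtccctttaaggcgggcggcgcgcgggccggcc
Wnt11, chr7:98834862-98835111, plus strand: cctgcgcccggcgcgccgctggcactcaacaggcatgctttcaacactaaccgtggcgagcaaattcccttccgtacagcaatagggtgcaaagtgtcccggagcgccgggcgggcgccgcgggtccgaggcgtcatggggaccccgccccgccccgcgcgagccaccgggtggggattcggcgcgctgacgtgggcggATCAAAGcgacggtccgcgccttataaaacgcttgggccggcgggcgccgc
Wnt7a, chr6:91411354-91411603, minus strand: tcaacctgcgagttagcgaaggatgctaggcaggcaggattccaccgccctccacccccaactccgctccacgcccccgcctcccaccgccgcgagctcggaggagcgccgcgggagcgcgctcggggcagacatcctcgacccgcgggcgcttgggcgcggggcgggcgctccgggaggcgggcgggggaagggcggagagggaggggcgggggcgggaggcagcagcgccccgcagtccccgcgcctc
Wnt5b, chr6:119467212-119467461, minus strand: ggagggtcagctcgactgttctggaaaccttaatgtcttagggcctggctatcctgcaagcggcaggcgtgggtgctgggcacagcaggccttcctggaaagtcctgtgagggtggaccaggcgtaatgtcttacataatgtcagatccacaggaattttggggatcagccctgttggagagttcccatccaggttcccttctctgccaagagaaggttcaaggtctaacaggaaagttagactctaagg
The letters searched for TCF/LEF were CTTTGAA, the form CTTTGAT, the form CTTTGTA and the form CTTTGTT, on both strands. Of these promoters, that of Wnt11 holds 1 match, and those of Axin2, Wnt7a and this start of Wnt5b hold none. Over the 40 known starts of the 31 genes, 5 (12.5%) had a match in these 250 bases, against 14.8% of 32851 promoters in the table. The AP-1 letters TGANTCA were found at 1 of the 40 starts, another start of Wnt5b, against 6.75% of all promoters. No promoter of these genes held both sets of letters, and a match describes the letters only.

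Among the 19 Wnt ligand genes, 12 had a longer covered length after caerulein and 5 in untreated spheroids, with a median log2 ratio of 0.14. Over all protein-coding genes with a peak, 52.0% were longer after caerulein and 48.0% in untreated spheroids, which is the base for every such count below. Of the ligand genes longer after caerulein, Wnt1, Wnt3a, Wnt6, Wnt8a, Wnt8b and Wnt9b had no peak when each peak counted for its nearest gene alone. The 5 longer in untreated spheroids all kept a peak, though Wnt5b was then longer after caerulein. Ratios throughout are post-caerulein over untreated after adding 1 kb to each length. Wnt7b, which encodes a ligand made by many epithelia, had the longest coverage of the 44 genes after caerulein. Its covered length was 79.8 kb after caerulein and 66.3 kb untreated. A single peak spanned the whole gene body in each list (55.7 and 55.5 kb), ranking 13th and 14th by width among all peaks of the lists. The body was thus fully covered in both, and the difference lay in the flanks, with 33.4 and 19.9 kb. Of it, 12.0 kb came from 5 post-caerulein-only peaks, 7698 to 43238 bp from the gene.

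Wnt7a, another ligand of this subfamily (chromosome 6, 91363981 to 91411353), had a covered length of 31.9 kb after caerulein and 16.0 kb untreated, a ratio of 1.94. No other protein-coding gene lies in its window. All 6 untreated peaks inside the gene body lay under peaks of the post-caerulein list, and those post-caerulein peaks were wider. Shared peaks over the window gave 23.2 and 16.0 kb. One post-caerulein peak of 7.84 kb covered the place of 2 untreated peaks of 1.43 and 2.91 kb. A further 8.70 kb came from 4 post-caerulein-only peaks, 3 of them in the gene body and 1 of them 3965 bp beside it. The start itself was marked in both lists by peaks of similar width, 3.01 kb after caerulein and 2.66 kb untreated. Their scores lay at the 68.3th and 34.3th percentiles of their lists. In covered length Wnt7a therefore differed mainly within the gene, and both lists had a peak at its promoter.

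Wnt4, a ligand known from kidney and mammary gland development, had 52.4 kb after caerulein in 8 peaks and 37.9 kb untreated in 12 peaks. The ratio of 1.37 stayed under 1.5-fold. A 17.1 kb peak over the start after caerulein stood against untreated peaks of 13.4 and 1.33 kb. Over the gene each list had 1 peak of its own, 5.51 kb wide after caerulein and 1.85 kb wide in untreated spheroids.

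Wnt5b, a ligand of the beta-catenin-independent branch (chromosome 6, 119432531 to 119544824), leaned to the untreated side over the window, with 21.9 kb after caerulein and 38.6 kb untreated. The flanks carried this difference, with 10.1 kb after caerulein and 31.1 kb untreated. The body went the other way, with 11.8 and 7.44 kb. All 5 untreated-only peaks lay 1543 to 28610 bp outside the gene on its low-coordinate side, and 3 of them were nearer to Adipor2. When a peak counted only for its nearest gene, Wnt5b had 11.8 and 10.5 kb. The start printed above was marked in both lists, by peaks of 1.79 kb after caerulein and 1.11 kb untreated. Their scores lay at the 41.0th and 5.43th percentiles of their lists, so the untreated mark was weak.

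Wnt11, also mostly a beta-catenin-independent ligand, had no peak in its gene body after caerulein and 2 untreated-only peaks there. One of them, 2202 bp wide, covered the start printed above. It was weak, with a peak-caller score at the 9.99th percentile of its list. The total was 6.65 kb after caerulein and 11.5 kb untreated. Wnt16 had no post-caerulein peak and 1 untreated-only peak of 1.49 kb, 7080 bp from the gene. Wnt10b and Wnt1 lie side by side, with windows that overlap over 88.4 kb. They shared the same 2 post-caerulein-only peaks of 1.38 and 1.60 kb, which gave Wnt10b 7.14 kb after caerulein and 4.10 kb untreated, a ratio of 1.60. For Wnt1 the lengths were 8.66 and 5.75 kb.

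The remaining ligand genes differed by less than 1.5-fold with all peaks counted. Wnt3a (24.4 and 23.5 kb) and its neighbour Wnt9a (1.88 and 1.68 kb) were close in the lists, as was Wnt9b (10.3 and 9.30 kb), and none had a list-only peak. Wnt6 (7.05 and 4.58 kb), Wnt10a (1.93 and 1.58 kb), Wnt8a (6.56 and 4.98 kb) and Wnt8b (5.11 and 3.69 kb) were longer after caerulein. The windows of Wnt6 and Wnt10a overlap over 93.3 kb, and the 1 peak of Wnt10a in each list also counted for Wnt6. These genes are therefore not separate cases among the ligands longer after caerulein. Wnt2b (9.94 and 12.9 kb) and Wnt5a (6.23 and 8.97 kb) were longer in untreated spheroids. Peaks of Wnt1, Wnt2b, Wnt3a, Wnt6, Wnt8a, Wnt8b, Wnt9b and Wnt10a lay in the flanks alone, so the gene bodies themselves carried none. Of the 4 R-spondin genes, Rspo1 alone had peaks, 2 in each list and both outside the gene, with 3.60 kb after caerulein and 3.61 kb untreated.

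**Figure D2:**
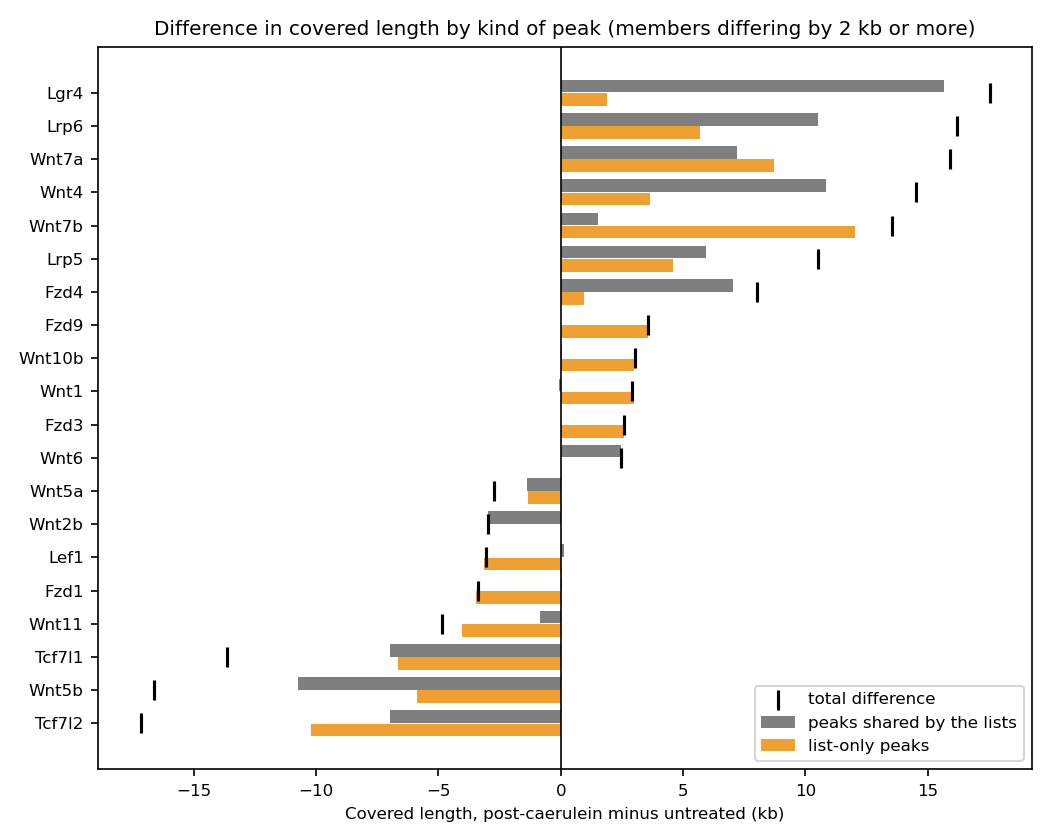
Covered length after caerulein minus untreated, in kb, for the genes that differed by 2 kb or more, split into peaks shared by the lists (grey) and list-only peaks (orange), with the total as a black tick. At Lgr4, Lrp6 and Wnt4 most of the difference lies in shared peaks that were wider after caerulein, whereas at Wnt7b and Tcf7l2 list-only peaks give the larger portion.

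Frizzled genes encode the seven-pass Wnt receptors. Of the 10, covered length was longer after caerulein at 7 and in untreated spheroids at 3, with a median log2 ratio of 0.25, where 52.0% and 48.0% of all genes with a peak were so. Fzd3 and Fzd9 had peaks after caerulein alone, where untreated spheroids had none within 50 kb. At Fzd3 these were 2 weak peaks, 2.59 kb together. One of them, 1.08 kb wide and at the 6.16th score percentile, lay over an end of the gene. The other, 1505 bp wide, lay 42038 bp away and was nearer to Extl3. At Fzd9 the 2 peaks (3.58 kb together) were 12693 and 36944 bp away, at the 7.73th and 29.2th score percentiles. The farther and wider of the 2, at 2.28 kb, was nearer to Baz1b. Fzd4 had 33.7 kb after caerulein and 25.7 kb untreated, and one post-caerulein peak of 15.9 kb, 12300 bp beyond the gene, stood over 5 separate untreated peaks that were 1.03 to 4.52 kb wide. Fzd5 was level, at 16.3 and 16.2 kb, with 7 peaks in each list. Fzd1 was the Frizzled gene with the clearest lean to untreated spheroids, at 6.35 and 9.76 kb. Of its 2 untreated-only peaks, 1 had a score at the 52.4th percentile, the strongest list-only peak found near any of the 44 genes.

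Of the other Frizzled genes, Fzd2 had 5.46 kb after caerulein and 6.98 kb untreated. Fzd6 had 3.34 and 3.38 kb, with 1 weak list-only peak in each list. Fzd7 had 3.45 and 1.99 kb, and the added length was a post-caerulein-only peak 54 bp beyond the gene. Fzd8 (2.49 and 2.19 kb) and Fzd10 (2.98 and 2.00 kb) had 1 shared peak each.

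Both genes of the LRP coreceptors, which pair with Frizzled in the beta-catenin branch, had longer coverage after caerulein. Lrp6 (chromosome 6, 134446476 to 134566913) had 38.2 kb after caerulein and 22.0 kb untreated, a ratio of 1.71. All 10 untreated peaks of Lrp6 were shared, and the overlapping post-caerulein peaks added up to 32.5 kb against 22.0 kb. Inside the gene, a peak of 4.04 kb after caerulein met an untreated peak of 1.67 kb, and another of 3.34 kb met one of 1.11 kb. The 4 post-caerulein-only peaks added 5.68 kb. Body and flanks went the same way, with 21.2 and 14.4 kb in the flanks, where part of the peaks lay nearer to Bcl2l14 or Mansc1. Lrp5 had 59.5 and 49.0 kb, a ratio of 1.21, and 3 post-caerulein-only peaks, all within the gene and at or below the 16.3th score percentile.

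Among the R-spondin receptors, Lgr4, which is broadly expressed in epithelia, had 62.2 kb after caerulein and 44.6 kb untreated. This difference of 17.5 kb is the longest gain after caerulein among the 44 genes, but on long coverage it gave a ratio of 1.38. List-only peaks made up 1.88 kb of it, and the rest came from wider shared peaks along the gene body (49.8 and 33.1 kb). One post-caerulein peak of 5.84 kb, for example, met an untreated peak of 2.04 kb. Lgr5, a stem cell marker of the intestine, had no peak in its body in either list. Its flanks held 3.69 kb after caerulein and 2.28 kb untreated, in peaks that were all nearer to Zfc3h1. Lgr6 had 10.5 and 10.0 kb in 5 shared peaks of each list.

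**Figure D3:**
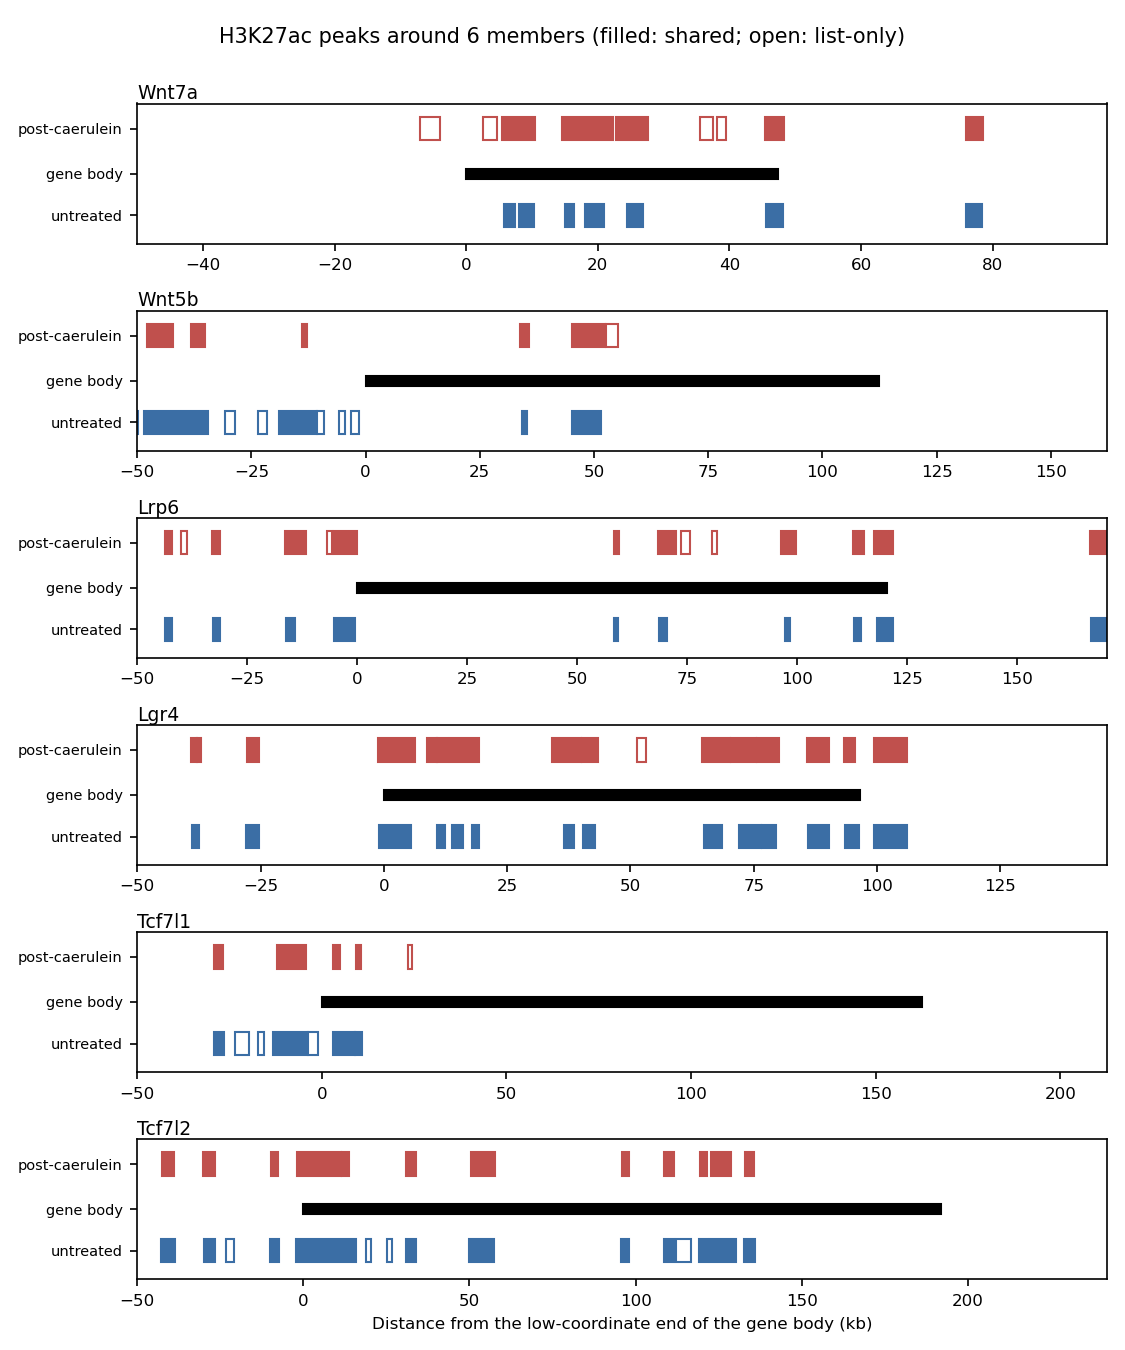
Peaks of each list around 6 of the genes, by distance in kb from the low-coordinate end of the gene body (black bar), with filled boxes for shared peaks and open boxes for list-only peaks. Wider red boxes within Wnt7a, Lrp6 and Lgr4 stand over narrower blue ones, and the blue boxes that have no red partner at Wnt5b and Tcf7l1 lie beside the gene and not in it.

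Ctnnb1, the gene of beta-catenin, was nearly the same in the lists. It had 67.0 kb after caerulein in 7 peaks and 68.3 kb untreated in 8, all shared. A peak of 36.2 kb after caerulein and of 37.4 kb untreated spanned the gene and both of its known starts. Axin2, a negative regulator of the pathway that is itself switched on by beta-catenin in many tissues, had 1 peak after caerulein and none in untreated spheroids. That peak (chromosome 11, 108919960 to 108921323) was 1.36 kb wide, covered the start printed above and lay at the 42.9th percentile of scores. No untreated peak was found within 390470 bp of it, and no other protein-coding gene lies within 50 kb of Axin2. The mark at the Axin2 start thus passed the peak caller's threshold in 1 of the 2 libraries, and how far below it the other library lay cannot be read from peak lists.

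The TCF/LEF genes, whose proteins carry beta-catenin to DNA, had the longer covered length in untreated spheroids at each of the 4, as did 48.0% of all genes with a peak. The median log2 ratio was -0.66, but Tcf7 was near level at -0.11, and Lef1 came to 0.05 when each list was limited to peaks at or above its median score. Their summed length was 80.8 kb after caerulein and 115.7 kb untreated. Tcf7l2, the main TCF factor of many adult epithelia (chromosome 19, 55741797 to 55933659), had 51.0 and 68.2 kb, a ratio of 0.75 and the largest deficit after caerulein in kb among the 44 genes. No other protein-coding gene lies in its window. Its first known start was under a strong peak in both lists, and the other known start had no peak within 1 kb in either. The untreated peak was 18.2 kb wide, and 2 post-caerulein peaks of 13.4 and 2.22 kb overlapped it. The 13.4 and 18.2 kb peaks had scores at 3100, a value at which strong peaks of each list pile up. Scores of 3100 or more were held by 5828 post-caerulein and 8440 untreated peaks over the genome. Tcf7l2 had 4 untreated-only peaks and no post-caerulein-only peak. The widest of the 4, at 4.48 kb, lay in the gene 533 bp from a post-caerulein peak. The body held 39.7 and 53.4 kb and the flanks 11.3 and 14.8 kb.

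Tcf7l1, which mostly acts as a repressor, had 14.4 kb after caerulein and 28.0 kb untreated, an untreated to post-caerulein ratio of 1.89. Its known start, at 72789045 on the minus strand, had no peak within 1 kb in either list. All its body peaks lay between 72629298 and 72650838, toward the other end of the gene. Counted by nearest gene, Tcf7l1 had 4.18 kb after caerulein and 10.4 kb untreated. Within the gene, an untreated peak of 5.99 kb at the 70.6th percentile met a post-caerulein peak of 1.72 kb at the 1.27th percentile. The 3 untreated-only peaks lay 1081 to 19853 bp outside, and 2 of them were nearer to Retsat or Tgoln1. Lef1, an activating member of the family, had no peak in its body in either list. Its flank held 2.51 kb after caerulein and 5.55 kb untreated, in peaks nearer to Hadh, 25390 bp or more from Lef1. Counted by nearest gene, Lef1 had no peak. Tcf7 had 12.9 and 13.9 kb over the window. Its body held 1 untreated-only peak of 2.09 kb and no post-caerulein peak, while its flanks went the other way, with 12.9 and 11.8 kb. Tcf7l2 and Tcf7l1 thus differed in body and flank, and Lef1 in its flank alone. At Tcf7l1 the body difference lay far from the known start. The 1 post-caerulein-only peak of Tcf7l1 lay in its body and was 1.09 kb wide.

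**Figure D4:**
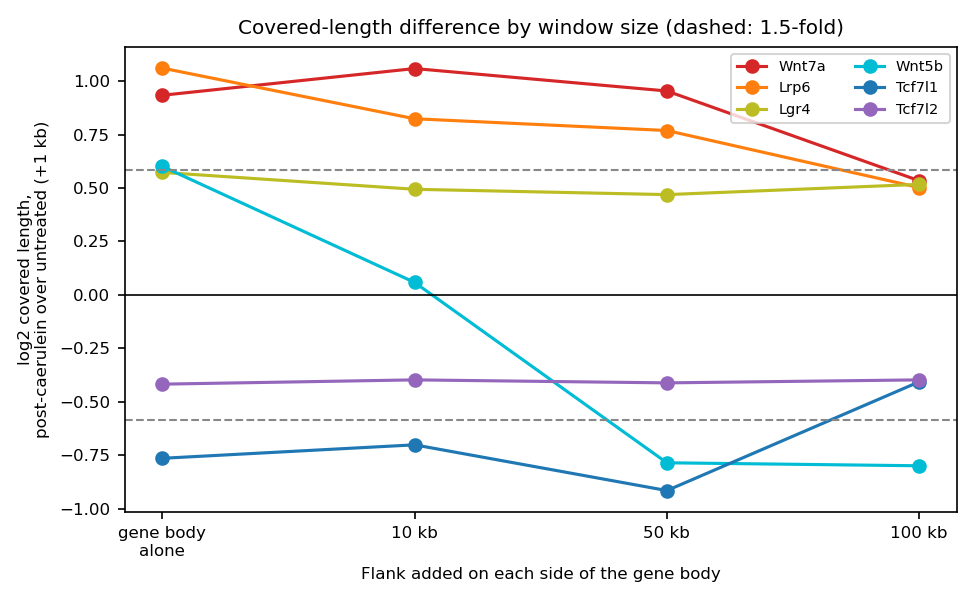
The log2 ratio of covered length, post-caerulein over untreated, for 6 genes as the flank added to the gene body grows from none to 100 kb, with dashed lines at 1.5-fold. Wnt7a, Lrp6 and Lgr4 stay above 0 and Tcf7l1 and Tcf7l2 below 0 at all 4 sizes, but at 100 kb Wnt7a, Lrp6 and Tcf7l1 no longer pass 1.5-fold, and Wnt5b crosses from 0.60 for the body to -0.79 at 50 kb.

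A covered length at least 1.5-fold longer after caerulein was found at 6 of the 44 genes (Wnt7a, Wnt10b, Fzd3, Fzd9, Lrp6 and Axin2), or 13.6%, against 5.63% of all protein-coding genes. At 5 genes (Wnt5b, Wnt11, Wnt16, Tcf7l1 and Lef1), or 11.4%, it was as much longer in untreated spheroids, against 5.38% of all. With genes that had any peak as the base, the shares were 15.4% against 7.17% and 12.8% against 6.85%. Short covered lengths pass a fold more readily, and 7 of the 11 genes stayed under 12 kb in each list. The 39 genes with a peak had median lengths of 7.05 kb after caerulein and 8.97 kb untreated. All 17179 genes with a peak had medians of 13.9 kb in both lists, so the shares above compare genes of unlike coverage. Among the 12 genes with at least 20 kb in either list, Wnt7a and Lrp6 passed on the post-caerulein side and Wnt5b and Tcf7l1 on the untreated side, and of all genes with so much coverage 4.07% and 3.86% did. At 100 kb Wnt7a (log2 ratio 0.53), Lrp6 (0.50) and Tcf7l1 (-0.41) fell below 1.5-fold, and Wnt5b did not (-0.80). The median score was 526.4 in the post-caerulein list and 681.4 in the untreated list, so a limit at the median was higher in raw score for untreated peaks. Limiting each list to peaks at or above its median score brought other genes past 1.5-fold on both sides. After caerulein these were Wnt4 (1.26), Wnt6 (1.27), Fzd4 (1.63) and Lgr4 (1.06), as well as Fzd8 and Lgr5, which had no untreated peak left. On the untreated side they were Wnt5a (-1.10) and Wnt2b (-0.86). Under the same limit Wnt10b, Fzd3, Fzd9 and Axin2 no longer passed after caerulein, nor did Wnt16 and Lef1 on the untreated side. The median log2 ratio was 0.14 over the 39 genes with a peak and 0.01 over all 17179 such genes. By list-only peaks, 15 genes (34.1%) had more in the post-caerulein list, against 23.7% of all genes, and 9 (20.5%) had more in the untreated list, against 21.4%.

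List-only peaks were weak near these genes, as they were over the genome. Their scores had a median percentile of 16.8 after caerulein and 14.7 untreated, against 57.7 and 51.3 for shared peaks in the same windows. Over all peaks of the lists the medians were 15.2 and 16.4 for list-only and 58.6 and 56.7 for shared peaks. Here a percentile is the share of the list's peaks with that score or a lower one. None of the 34 post-caerulein-only peaks and 1 of the 25 untreated-only peaks, the one beside Fzd1, had a score at or above the median of its list, as did 183 of 6792 and 304 of 5402 in all. They were also narrow, with median widths of 1560 and 1702 bp, against 2936 and 2569 bp for shared peaks. A gene of this group was the nearest one for 22 of the 34 and 15 of the 25. At Lgr4, Lrp6 and Wnt4 most of the difference rested on shared peaks that were wider after caerulein. Both libraries had a peak at those places, but the untreated partner could be weak. Within Lrp6, an untreated peak of 1.11 kb at the 6.95th score percentile met a post-caerulein peak of 3.34 kb at the 48.4th. The part of depth in these widths was not tested.

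**Figure D5:**
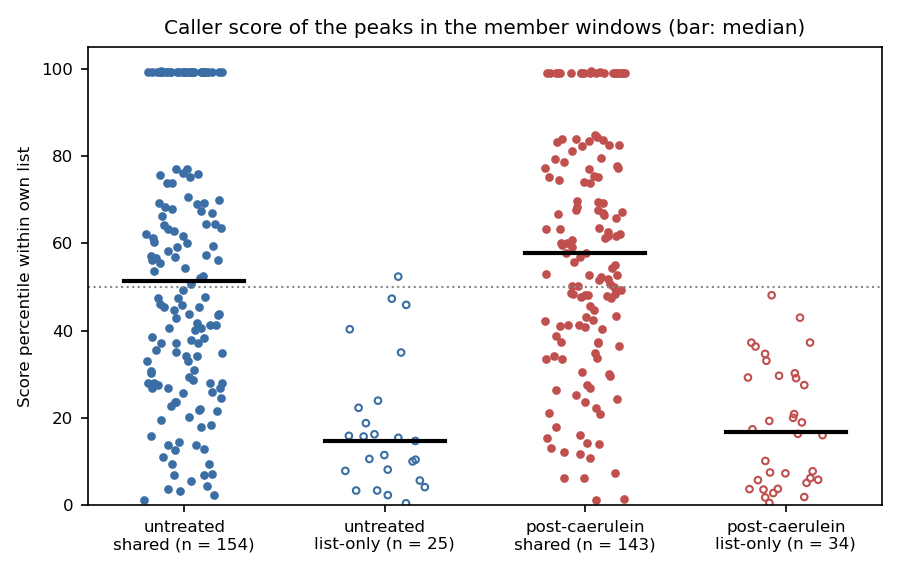
Caller score of each peak in the windows of the 44 genes, as a percentile within its own list, for shared peaks (filled) and list-only peaks (open) of each library, with bars at the medians. Open points lie below the 50th percentile but for 1 untreated peak, and the row of points near 99 holds peaks at the score ceiling.

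A further list of 55 genes of the pathway was read in the same way, and 48 of them had a peak. Covered length was at least 1.5-fold longer after caerulein at 6 and in untreated spheroids at 2, and the median log2 ratio was 0.01. The shares over all genes were 5.63% and 5.38%. Of 9 genes for membrane feedback and co-receptors, 7 were longer after caerulein and 2 untreated, and of 9 nuclear cofactor genes 3 and 6, where all genes with a peak gave 52.0% and 48.0%. Rnf43, a ubiquitin ligase that removes Frizzled from the cell surface, had 27.6 kb after caerulein and 16.4 kb untreated. Ror1, a receptor of the beta-catenin-independent branch, had 15.6 and 4.85 kb, with 4 post-caerulein-only peaks and a start marked after caerulein alone. Ror2 had a single peak of 1.56 kb, after caerulein. Of 12 secreted inhibitor genes, 4 had no peak in either list and none had a marked start. Dkk2 (3.51 kb) and Sfrp2 (1.01 kb) had peaks after caerulein alone, and Sfrp4 had 1.75 kb after caerulein and 3.97 kb untreated. Among nuclear cofactor genes, the corepressor gene Tle4 had 8.33 and 4.84 kb, and Ctnnbip1, which blocks beta-catenin from TCF factors, had 13.5 and 22.3 kb. Of 6 known target genes, 3 were longer after caerulein and 1 untreated, 2 had no peak and none passed 1.5-fold. Ascl2, one of them, was the 1 gene of the list with a start marked in untreated spheroids alone. No gene of the destruction complex or of the Dvl and planar polarity group passed 1.5-fold.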

How the data were processed

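H3K27ac was profiled by chromatin immunoprecipitation and sequencing, after fixation with 1% formaldehyde (10 min) and with 10 µg of antibody, per the labels' protocols. Per the submitters' processing notes, reads were handled with Trimmomatic 0.38, Bowtie2 2.2.6 (GRCm38, also called mm10), SAMtools and MACS 1.4. The control library and the options of the peak caller are not given in the sources used here. A deposited list comes from 1 library and gives a position and the authors' score per peak. That deposited score runs from 50.0 to 3233.06, piles up at 3100 and has no stated definition, so here it serves for order and limits inside a list alone. The lists hold no counts, and the depth is unknown.

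Only autosomes (1 to 19) and the sex chromosomes entered. Gene bodies (RefSeq, GRCm38.p6) were extended by 50 kb, and a peak counted for every gene whose window it touched. Covered length was summed within the window, with 1 kb added before ratios, and 1.5-fold counted as different. Windows held a median of 2 other protein-coding genes. Starts came from a RefSeq promoter table for 31 of the genes, otherwise gene ends were used, with a 1 kb tolerance. Python 3.11.15, pandas 2.3.3 and scipy 1.17.1 were used. List-only counts were checked against bedtools 2.31.1, and the code was tested on simulated data. Values are given in full for genes past 1.5-fold, with 2 or more list-only peaks more in 1 list, with a start marked in 1 list, or with the 5 longest covered lengths. The genes, lists and rules were chosen with earlier results of these data known. The 20 kb base was added after the values were seen.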

Additional observations from a re-analysis of the deposited data

How the results depend on the processing

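All alternatives below were planned. With windows of 10 kb, the gene body alone and 100 kb, the post-caerulein list gave 87, 67 and 309 peaks and the untreated list 84, 61 and 311, with 20, 15 and 55 post-caerulein-only and 13, 7 and 46 untreated-only peaks, and log2 ratios of total covered length of 0.15, 0.17 and 0.06 (0.11 at 50 kb). Peaks at or above their list's median score numbered 86 and 79, with 12 and 11 marked starts and a log2 ratio of 0.22. List-only status was kept from the full lists in this setting. Its 0 and 1 list-only peaks, and so its 0 and 1 leaning genes, therefore repeat the score counts above and are no separate check. Counting each peak for its nearest gene gave 102 and 104 peaks, 22 and 15 list-only, and a log2 ratio of 0.17, and equal numbers of peaks gave a log2 ratio of 0.094. On the body alone 9 and 3 genes leaned, and 3 genes were 1.5-fold longer untreated. At 100 kb 3 genes passed on each side, at 2-fold 3 after caerulein and 1 untreated, and with 5 kb added 2 untreated. Of the 11 genes past 1.5-fold, 4 kept their call at 100 kb, 5 with the score limit, 6 with 5 kb added, 7 at 10 kb, 7 on the body and 9 by nearest gene. The log2 ratio reversed for Wnt5b (0.058 at 10 kb, 0.60 on the body, 0.16 by nearest gene), Fzd3 (-0.33 at 100 kb) and, with the score limit, Wnt10b (-0.002) and Lef1 (0.047). The cause was not tested where fewer peaks or genes do not give it by construction. No paired analysis was possible because each group is a single library, so leaving one out was not possible either. The unknown depth limits every list-only call and every peak width.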

Other observations

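Width and score did not go together at the longest domain. The peak over Wnt7b, 55.7 kb after caerulein and 55.5 kb untreated, had scores at the 41.3th and 43.7th percentiles, under the median of each list. The 36.2 and 37.4 kb peaks over Ctnnb1 had scores of 3100, where strong peaks pile up. With peaks under the median left out, the covered length of Wnt7b was 9.61 kb after caerulein and 8.18 kb untreated.

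Peak numbers and covered length could point in opposite directions. Wnt4 had 8 peaks after caerulein and 12 untreated with the longer coverage after caerulein (52.4 and 37.9 kb), and Fzd4 likewise had 8 and 12 peaks with 33.7 and 25.7 kb.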
